A study of Rattus norvegicus with 16 samples.

Results

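The genes described here encode the machinery that licenses replication origins and copies DNA, together with enzymes that supply deoxynucleotides and factors that act on chromatin during S phase. Of 34 listed genes, 31 had at least 1 probe set that the array annotation pairs with a single gene symbol, out of 14217 such genes on the array, and each gene was represented by its brightest probe set over the 16 arrays. Cdc6 and Gins2 had no probe set under their own symbol, and Rrm2 occurred only in probe sets shared by several symbols, so these 3 genes have no values here. Rat adrenal tissue was hybridised to 1-colour oligonucleotide arrays, and all values are log2 expression values produced with RMA, a method that subtracts background, brings the arrays to one distribution and combines each probe set into a single value. The first group was adrenal medullary hyperplasia from 8 p27Kip1 mutant rats aged 2 months, and its reference was wild-type adrenal medulla in 2 pools, of 2 and 3 animals, aged 2 months. The second was pheochromocytoma, a tumour of the chromaffin cells of the medulla, from 4 p27Kip1 mutant rats, 3 aged 8 months and 1 aged 9 months, and its reference was wild-type medulla in 2 pools of 2 animals each, 1 pool aged 10 months and the other holding animals of 12 and 17 months. All animals had the strain label Sprague–Dawley white eye/Wistar–Kyoto. The mutant lacks normal p27Kip1, the cyclin-dependent kinase inhibitor encoded by Cdkn1b, and carries the syndrome of multiple endocrine tumours named MENX. The labels give neither the zygosity of the mutants nor how the lesions were dissected.

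Before S phase, origins are licensed when Cdt1 and Cdc6 help to load the Mcm2-7 complex, the core of the replicative helicase, onto DNA. The helicase is activated with Cdc45 and the GINS complex, after which primase and polymerase alpha start each strand, polymerases delta and epsilon extend it on the sliding clamp PCNA, and Fen1 and Lig1 join the lagging-strand fragments. Many of these genes are activated by E2F transcription factors once cyclin-dependent kinases, the targets of p27Kip1, inactivate the retinoblastoma protein. Chromaffin cells of the adult medulla divide rarely, whereas the medulla of young rats still contains dividing chromaffin cells.

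Chromaffin markers were bright on all arrays. The mean of 9 markers was 12.97 to 13.10 in hyperplasia against 12.91 to 13.08 in young wild type, and 12.73 to 13.18 in pheochromocytoma against 12.28 to 12.72 in older wild type. Adrenal cortex markers were also bright, so the tissue was not medulla alone. Their mean, over 9 measured genes of 13 listed, was 11.28 to 12.12 in hyperplasia against 12.50 to 12.58 in young wild type, and 11.13 to 12.59 in pheochromocytoma against 12.89 to 13.10 in older wild type. The 3' minus 5' signal of hexokinase probe sets, a measure of RNA length, ran from 1.21 to 1.63 in hyperplasia against 1.07 to 1.18 in young pools. Every hyperplasia array was thus above both young pools. The signal ran from 2.16 to 3.30 in pheochromocytoma against 2.29 to 2.92 in older pools, so the older animals differed from the younger ones. On 6 arrays, Xist, the noncoding RNA that silences an X chromosome, went against the labelled sex. These were hyperplasia replicates 1, 2, 5 and 6 and both young wild-type pools, whereas pheochromocytoma and older wild type fitted their labels. In these bulk samples, fewer cells of a type and less RNA per cell cannot be told apart. Neither probe set of Cdkn1b checks the genotype, because the sources used here do not say which part of the transcript each one covers. The brighter probe set was 0.73 ± 0.11 (SE) higher in hyperplasia than in young wild type and 0.95 ± 0.12 higher in pheochromocytoma than in older wild type on the log2 scale. The dimmer probe set went the other way in hyperplasia, at 5.45 to 6.81 against 6.84 to 6.96 in young wild type (-0.81 ± 0.22, adjusted p = 0.0394). In pheochromocytoma it was 3.83 to 4.40, against 4.07 to 4.21 in older wild type (0.10 ± 0.25, adjusted p = 0.836). The values in both of these groups were dimmer than the lower quartile of their arrays (4.87 and 4.93). Signal over background is not shown in that range, so an absence of change is not shown either.

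Promoter windows of the replication genes, from 250 bases before to 50 bases after each gene start in RefSeq annotation of GRCr8, were available for 29 of the 31 genes. Mcm4 and Rpa3 have no window here. The E2F motif was searched as the 8-letter words TTTCCCGC, TTTCGCGC, TTTGCCGC and TTTGGCGC on both strands, and 14 of 29 windows (48.3%) held at least 1 word, against 618 of 27457 windows of all genes (2.25%) and 3.65% of the windows of genes measured on the array. CCAAT, on either strand, occurred in 55.2% of the replication gene windows and 37.7% of all windows. The windows below belong to 4 genes that were higher in both lesions (Cdt1, Mcm5, Mcm7 and Tcf19), to Mcm2, which was higher in pheochromocytoma, and to Pcna, which was higher in neither. They are printed 5' to 3' on the strand of the gene with E2F words in capitals. Their positions are chr19:67528999-67529298 (plus strand) for Cdt1, chr19:13488563-13488862 (plus) for Mcm5, chr12:22163129-22163428 (minus) for Mcm7, chr20:3223214-3223513 (plus) for Tcf19, chr4:122918045-122918344 (minus) for Mcm2 and chr3:139955771-139956070 (minus) for Pcna.
Cdt1: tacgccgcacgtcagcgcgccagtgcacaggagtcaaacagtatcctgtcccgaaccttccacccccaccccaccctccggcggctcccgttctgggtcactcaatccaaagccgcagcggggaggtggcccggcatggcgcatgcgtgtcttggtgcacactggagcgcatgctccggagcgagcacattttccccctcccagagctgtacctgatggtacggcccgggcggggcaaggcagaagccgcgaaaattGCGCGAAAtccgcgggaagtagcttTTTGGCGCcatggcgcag
Mcm5: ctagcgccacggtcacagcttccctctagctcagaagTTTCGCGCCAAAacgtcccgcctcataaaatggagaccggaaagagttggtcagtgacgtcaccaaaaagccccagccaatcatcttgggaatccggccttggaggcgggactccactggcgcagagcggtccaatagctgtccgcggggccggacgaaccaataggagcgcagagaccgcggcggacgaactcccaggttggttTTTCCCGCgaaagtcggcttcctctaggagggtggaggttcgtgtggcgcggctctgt
Mcm7: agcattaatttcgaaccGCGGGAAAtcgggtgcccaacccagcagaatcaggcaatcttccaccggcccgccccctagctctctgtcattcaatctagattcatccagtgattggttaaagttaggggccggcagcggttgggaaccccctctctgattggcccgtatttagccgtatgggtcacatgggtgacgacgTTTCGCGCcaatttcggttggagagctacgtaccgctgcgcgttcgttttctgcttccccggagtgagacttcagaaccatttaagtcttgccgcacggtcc
Tcf19: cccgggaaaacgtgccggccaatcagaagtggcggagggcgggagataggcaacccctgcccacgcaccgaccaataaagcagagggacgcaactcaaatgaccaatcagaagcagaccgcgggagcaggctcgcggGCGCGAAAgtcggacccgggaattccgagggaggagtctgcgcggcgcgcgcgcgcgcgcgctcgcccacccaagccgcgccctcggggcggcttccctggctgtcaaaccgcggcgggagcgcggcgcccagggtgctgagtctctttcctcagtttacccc
Mcm2: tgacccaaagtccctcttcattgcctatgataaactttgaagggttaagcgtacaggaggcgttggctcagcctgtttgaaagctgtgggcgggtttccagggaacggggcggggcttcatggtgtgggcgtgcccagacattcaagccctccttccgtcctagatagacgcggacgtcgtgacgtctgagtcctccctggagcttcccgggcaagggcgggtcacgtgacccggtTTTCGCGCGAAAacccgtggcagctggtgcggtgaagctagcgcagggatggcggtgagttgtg
Pcna: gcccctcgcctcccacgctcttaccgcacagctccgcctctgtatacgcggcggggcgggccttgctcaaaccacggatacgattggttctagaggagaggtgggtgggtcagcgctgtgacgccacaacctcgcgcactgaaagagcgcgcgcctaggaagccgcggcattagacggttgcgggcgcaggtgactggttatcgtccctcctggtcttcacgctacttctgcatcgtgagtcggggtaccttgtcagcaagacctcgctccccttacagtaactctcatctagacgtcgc
In Mcm2 and Mcm5 the capitals run on because neighbouring words on opposite strands overlap. A matching word is a description of the letters and does not show binding, and the Pcna window holds none of these words.

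**Figure D1:**
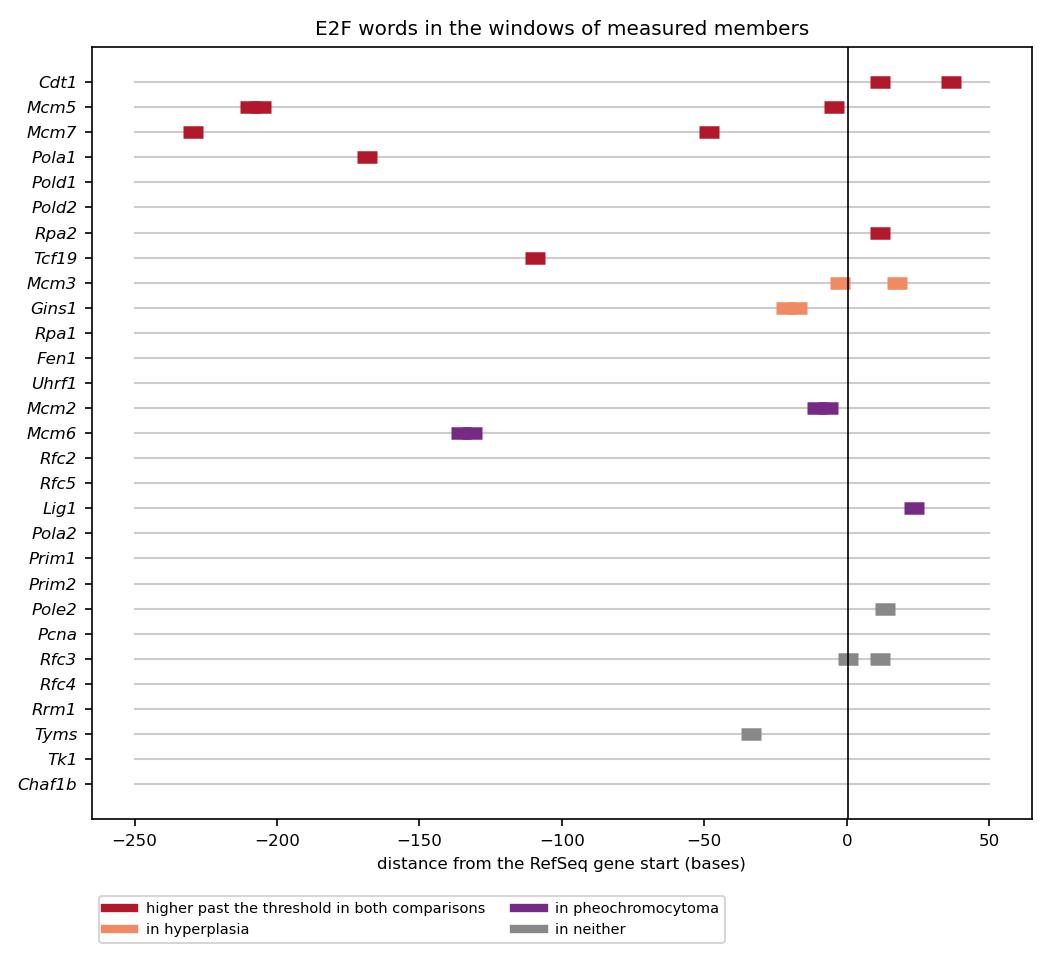
Positions of E2F words in the promoter windows of the 29 replication genes with a window. The horizontal axis is the distance in bases from the RefSeq gene start, each line is the window of 1 gene, and each block is 1 word of 8 letters, coloured by whether the gene was higher in both lesions, in 1 of them or in neither; 14 of the 29 windows hold a word.

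Of the genes higher in both lesions, 6 of 8 with a window (75.0%) held an E2F word. Of those higher in neither, 3 of 11 (27.3%) did, namely Pole2, Rfc3 and Tyms. CCAAT was split in the same way, in 7 of 8 (87.5%) of the first windows and 4 of 11 (36.4%) of the second. The set of genes higher in both lesions changed with the fit, as given below. Neither motif's part in the result was tested. A word began 8 bases before the start in Mcm5, and the overlapping words of Mcm2 began 14 and 10 bases before it, whereas both words of Cdt1 and the word of Rpa2 lay after the start, within the transcript.

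The comparison of medullary hyperplasia with young wild-type medulla asked which replication genes differ when the enlarged medulla of a young mutant is set against normal medulla of the same age. Of 31 genes, 14 (45.2%) were higher in hyperplasia and 0 were lower at an adjusted p under 0.05. Across all 14217 genes at that threshold, 5.16% were higher and 3.33% lower. At an unadjusted p under 0.05, 22 of the 31 were higher and 0 lower, with no share of all genes to set beside them. The test was limma's moderated test on all 16 arrays with labelled sex as a covariate and Benjamini-Hochberg adjustment over 31042 probe sets. The median log2 difference of the replication genes was 0.42, against -0.01 for all genes, and 29 of 31 differences were positive. The mean of 3 red blood cell markers was 7.67 to 8.76 in hyperplasia against 8.68 to 9.04 in young wild type. That of 13 macrophage and leukocyte markers was 8.89 to 9.30 in hyperplasia against 8.87 to 8.88 in young wild type. The hexokinase signal given above was also higher on every hyperplasia array than in both young pools. The part of the markers and of RNA length in the result was not tested. Every hyperplasia array lay above both wild-type pools for 16 of the genes (51.6%), and for 12.7% of all genes.

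**Figure D2:**
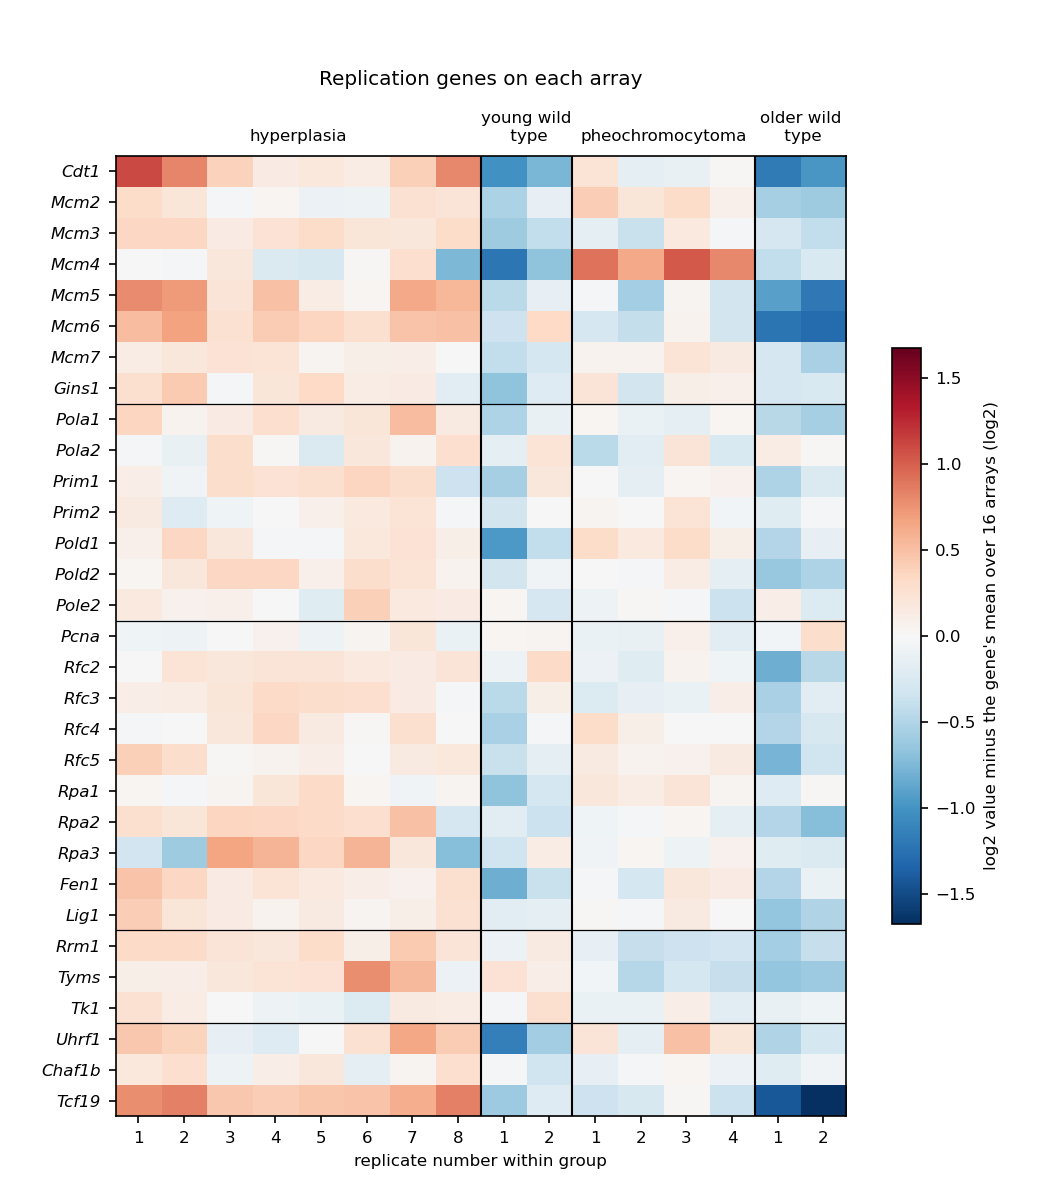
Log2 value of each of the 31 replication genes (rows) on each of the 16 arrays (columns), shown as the difference from that gene's mean over all arrays; columns are replicates of hyperplasia, young wild type, pheochromocytoma and older wild type. Horizontal lines separate licensing genes, polymerases and primase, clamp and lagging-strand genes, nucleotide supply, and chromatin and transcription factors; Cdt1 ranges from 5.11 in an older wild-type pool to 7.40 in a hyperplasia array.

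Licensing and helicase genes were the group with most calls, 6 of 8 in hyperplasia, with differences of 0.43 to 1.38. Cdt1, the loading factor for the helicase, was 6.41 at the lowest, 6.68 at the median and 7.40 at the highest in hyperplasia, against 5.28 and 5.52 in the young wild-type pools. All 8 hyperplasia arrays were above both pools, and the difference was 1.38 ± 0.22 (SE; 2.61-fold, adjusted p = 0.00223). Its window, printed above, carries both of its E2F words just downstream of the start. Mcm3, a helicase subunit, was 6.60 to 6.82 with a median of 6.74 in hyperplasia, against 5.87 and 6.06 in young wild type. The hyperplasia arrays lay in a narrow band above both pools, with a difference of 0.77 ± 0.12 (1.70-fold, adjusted p = 0.00185). Mcm4, which sits beside Mcm6 and Mcm7 in the helicase ring, was 7.16 at the lowest, 7.90 at the median and 8.20 at the highest in hyperplasia, against 6.70 and 7.24 in young wild type. Hyperplasia replicate 8 fell below the second pool, so the groups overlapped, and the difference was 0.84 ± 0.21 (adjusted p = 0.0241). Mcm5, another ring subunit, was 7.19 to 7.96 with a median of 7.69 in hyperplasia, against 6.71 and 7.02 in young wild type. No array overlapped, and the difference was 0.74 ± 0.19 (adjusted p = 0.0267). Gins1, a subunit of the GINS complex that joins the helicase at firing, was 5.23 to 5.84 with a median of 5.58 in hyperplasia, against 4.73 and 5.19 in young wild type, a difference of 0.61 ± 0.16 (adjusted p = 0.0321). The lowest hyperplasia array was only just above the second pool. The first pool was dimmer than the lower quartile of its array (4.81), where signal over background is not shown. Mcm7, a further ring subunit, had the smallest standard error of the licensing genes, with means of 9.73 ± 0.08 in hyperplasia (SD, n = 8) and 9.25 ± 0.07 in young wild type (SD, n = 2), and a difference of 0.48 ± 0.09 (SE). The other helicase subunits, Mcm2 at 0.43 ± 0.13 (adjusted p = 0.0533) and Mcm6 at 0.44 ± 0.15 (adjusted p = 0.0896), did not pass the threshold.

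Among the polymerase genes, 3 of 7 were higher in hyperplasia. Pold1, the catalytic subunit of polymerase delta, was 7.19 to 7.57 with a median of 7.36 in hyperplasia, against 6.26 and 6.81 in young wild type. The groups did not overlap, and the difference was 0.82 ± 0.14 (1.77-fold, adjusted p = 0.00294). Pola1, the catalytic subunit of polymerase alpha, differed by 0.55 ± 0.13 and Pold2, an accessory subunit of polymerase delta, by 0.38 ± 0.11 (adjusted p = 0.0475). The primase subunits Prim1 and Prim2, the polymerase alpha subunit Pola2 and the polymerase epsilon subunit Pole2 had differences of 0.02 to 0.33 and did not pass.

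Clamp, clamp loader, single-strand binding and lagging-strand genes gave 3 calls of 10 in hyperplasia. Fen1, the nuclease that trims flaps from lagging-strand fragments, was 7.48 to 7.88 with a median of 7.60 in hyperplasia, against 6.59 and 7.03 in young wild type. All hyperplasia arrays were above both pools, with a difference of 0.82 ± 0.15 (1.77-fold, adjusted p = 0.00478). Rpa1, the large subunit of the single-strand binding protein RPA, was 9.50 to 9.88 with a median of 9.60 in hyperplasia, against 8.88 and 9.26 in young wild type, a difference of 0.56 ± 0.12 (adjusted p = 0.0104). Rpa2, the middle subunit, differed by 0.53 ± 0.15 with overlapping groups, whereas Rpa3, the small subunit, had a difference of 0.19 ± 0.32 and an SD of 0.56 among the hyperplasia arrays. Pcna, the sliding clamp, was the brightest replication gene on the arrays and had means of 11.37 ± 0.11 in hyperplasia (SD, n = 8) and 11.41 ± 0.02 in young wild type (SD, n = 2), with a difference of -0.04 ± 0.11 (SE, adjusted p = 0.879). The clamp loader subunits Rfc2 to Rfc5 had differences of 0.05 to 0.42 and did not pass, with Rfc5 nearest to the threshold (adjusted p = 0.0555). A second, dimmer Rfc5 probe set passed with the same difference of 0.42 (adjusted p = 0.0346). Lig1, the ligase that seals the fragments, had a difference of 0.34 ± 0.10 (adjusted p = 0.0563) and no overlap between the groups.

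Of the 3 nucleotide supply genes, 0 passed in hyperplasia and 1, Rrm1, had an unadjusted p under 0.05. Rrm1, the large subunit of ribonucleotide reductase, differed by 0.24 ± 0.11, Tyms, thymidylate synthase, by 0.09 ± 0.17 and Tk1, the cytosolic thymidine kinase, by -0.09 ± 0.12. Of the chromatin and transcription factor genes, 2 of 3 were higher. Tcf19, a PHD finger protein first known as a growth-regulated gene of late G1 and S phase, was 8.51 to 8.94 with a median of 8.64 in hyperplasia, against 7.48 and 7.88 in young wild type. The hyperplasia arrays were all above both pools, and the difference was 1.02 ± 0.15 (2.03-fold, adjusted p = 0.000994). Uhrf1, which recruits the maintenance DNA methyltransferase to hemimethylated DNA behind the fork, was 4.83 to 5.70 with a median of 5.37 in hyperplasia, against 3.90 and 4.47 in young wild type, a difference of 1.09 ± 0.22 (2.13-fold, adjusted p = 0.0091). Both wild-type values were dimmer than the array's lower quartile (4.81), a range in which a signal over background is not shown. Chaf1b, a subunit of the histone chaperone CAF-1, differed by 0.28 ± 0.13 and did not pass.

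**Figure D3:**
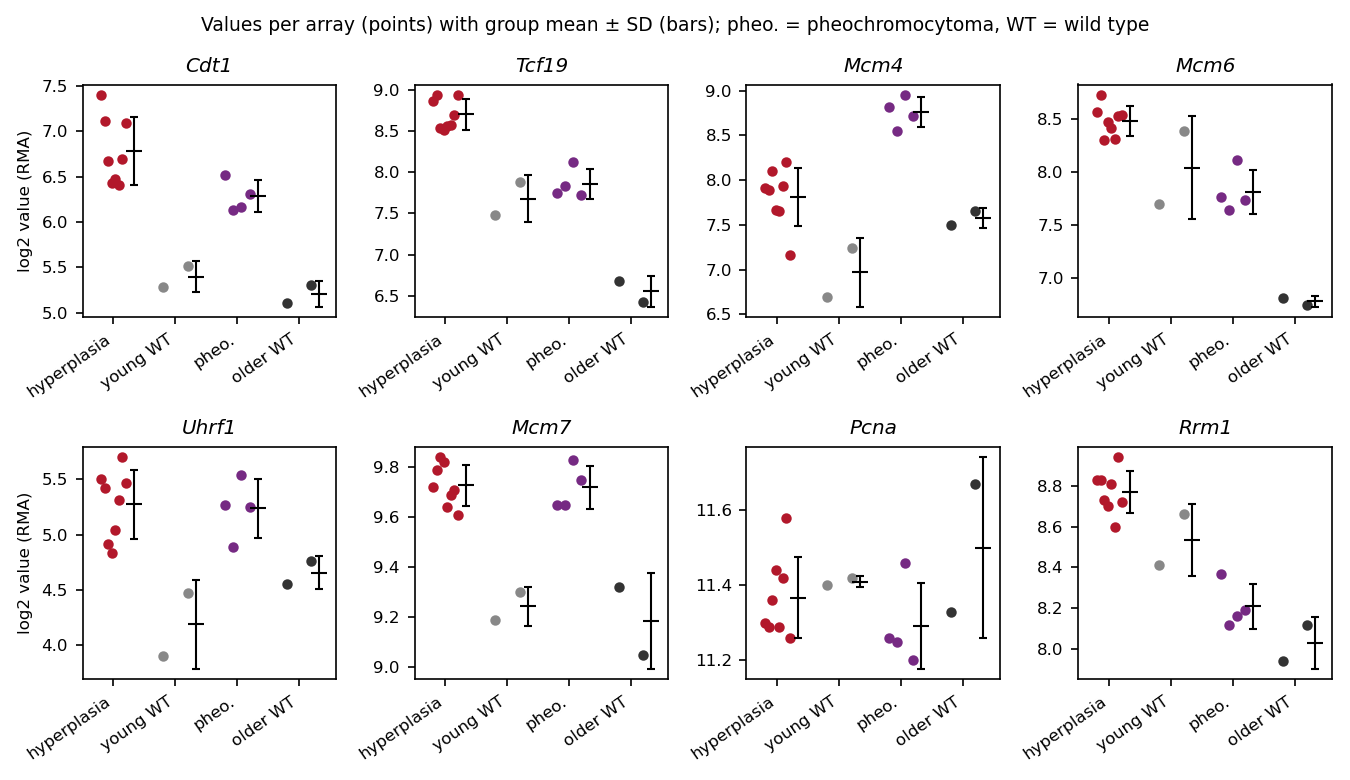
Log2 values of 8 replication genes on each array (points) with the group mean and SD (bars) for hyperplasia, young wild type (WT), pheochromocytoma (pheo.) and older WT. Cdt1 and Tcf19 are higher in each lesion than in its WT reference with no overlap. Mcm4 is highest in pheochromocytoma (8.55 to 8.95), and Pcna overlaps in both comparisons. Each vertical axis has its own range.

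The count in hyperplasia depended on single libraries and on settings, and Cdt1 passed under all 28 alternatives run. It was 3 without the first young wild-type pool (Cdt1, Mcm3 and Tcf19), when Uhrf1 was at 0.72, Gins1 at 0.41, Pola1 at 0.33 and Rpa1 at 0.36, and 8 without the second pool. It was 5 without the 4 hyperplasia arrays that went against their labelled sex, a fit that also leaves out the sex covariate, and 16 without that covariate alone. With the cortex markers' mean added to the fit it was 5, with a median difference of 0.45. Of all genes, 1208 passed as reported, 445 without the first young pool, 191 without the second, 356 without the 4 arrays and 210 with the cortex markers' mean.

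The comparison of pheochromocytoma with older wild-type medulla asked the same question of the tumours of older mutants. Again 14 of 31 replication genes (45.2%) were higher in the lesion and 0 were lower at an adjusted p under 0.05. Across all genes at that threshold, 8.85% were higher and 6.49% lower. At an unadjusted p under 0.05, 16 of the 31 were higher and 0 lower, with no share of all genes to set beside them. The median difference was 0.45, against 0.00 for all genes, and 27 of 31 differences were positive. For 20 of the genes (64.5%), and for 22.7% of all genes, every tumour array lay above both pools. The mean of 9 fibroblast and pericyte markers was 8.48 to 9.19 in pheochromocytoma against 8.33 to 8.37 in older wild type, and its part in the result was not tested.

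Licensing genes again held most calls, 6 of 8 in pheochromocytoma, with differences of 0.24 to 1.15 over all 8. Mcm4 was 8.82, 8.55, 8.95 and 8.72 in pheochromocytoma, against 7.50 and 7.66 in older wild type. The tumours were far above both pools, and the difference was 1.15 ± 0.23 (2.21-fold, adjusted p = 0.00579). Cdt1 was 6.52, 6.13, 6.17 and 6.31 in pheochromocytoma, against 5.11 and 5.31 in older wild type. The groups did not overlap, with a difference of 1.04 ± 0.24 (2.06-fold, adjusted p = 0.0133). Mcm6, a helicase subunit that had not passed in hyperplasia, was 7.76, 7.64, 8.11 and 7.74 in pheochromocytoma, against 6.82 and 6.75 in older wild type. The difference was 0.99 ± 0.16 (1.99-fold, adjusted p = 0.00211). Mcm2, also a ring subunit, was 8.87, 8.65, 8.76 and 8.53 in pheochromocytoma, against 7.89 and 7.86 in older wild type, and the pools were almost equal. The difference was 0.79 ± 0.14 (1.73-fold, adjusted p = 0.0031), and the printed Mcm2 window holds its overlapping E2F words just before the start. Mcm5 was 7.13, 6.59, 7.21 and 6.86 in pheochromocytoma, against 6.25 and 5.97 in older wild type. Its tumour values spread widely but stayed above both pools, with a difference of 0.79 ± 0.21 (adjusted p = 0.0228). Mcm7 differed by 0.50 ± 0.10 (adjusted p = 0.00493), close to its value in hyperplasia. Mcm3 at 0.24 ± 0.13 and Gins1 at 0.27 ± 0.18, both called in hyperplasia, did not pass here.

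Polymerase genes with a call in pheochromocytoma were the same 3 of 7 as in hyperplasia. Pold2 was 7.79, 7.77, 7.92 and 7.62 in pheochromocytoma, against 7.15 and 7.27 in older wild type. The groups did not overlap, and the difference was 0.54 ± 0.12 (adjusted p = 0.0103). Pold1 differed by 0.51 ± 0.15 and Pola1 by 0.45 ± 0.14, both near the threshold (adjusted p = 0.0415 and 0.0469). The Pold1 difference was 0.25 without the first older pool. Its call was also lost without any 1 of the 4 tumour arrays, and it passed under 12 of 28 alternatives. The primase and remaining polymerase subunits had differences from -0.26 (Pola2) to 0.35 (Prim1) and did not pass.

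Among clamp and lagging-strand genes, 4 of 10 were higher in pheochromocytoma. Rfc5, a clamp loader subunit, was 9.05, 8.95, 8.96 and 9.05 in pheochromocytoma, against 8.11 and 8.56 in older wild type. The tumour arrays were tightly grouped above both pools, with a difference of 0.67 ± 0.14 (1.59-fold, adjusted p = 0.00695), but the second Rfc5 probe set gave 0.33 and did not pass (adjusted p = 0.0879). Lig1 was 8.84, 8.81, 8.98 and 8.82 in pheochromocytoma, against 8.18 and 8.32 in older wild type. Its difference was 0.60 ± 0.11 (1.52-fold, adjusted p = 0.00388), and a second Lig1 probe set also passed, at 0.62 (adjusted p = 0.0309). Rfc2, another clamp loader subunit, was 8.78, 8.68, 8.94 and 8.81 in pheochromocytoma, against 8.06 and 8.41 in older wild type. No array overlapped, and the difference was 0.57 ± 0.13 (adjusted p = 0.0119). Rpa2 differed by 0.52 ± 0.16 (adjusted p = 0.045). Rfc4 at 0.46 ± 0.15 (adjusted p = 0.0606) lay just short of the threshold, and Rfc3 and Rpa3 were at 0.29 and 0.20. Fen1 at 0.29 ± 0.17 and Rpa1 at 0.23 ± 0.13, both called in hyperplasia, did not pass, and Pcna was at -0.19 ± 0.12 (adjusted p = 0.318) with overlapping groups.

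Nucleotide supply again gave 0 calls of 3 in pheochromocytoma, also 0 at an unadjusted p under 0.05, with Tyms at 0.35 ± 0.19, Rrm1 at 0.18 ± 0.12 and Tk1 at 0.00 ± 0.13. The dimmest of the 3 Tk1 probe sets was lower in pheochromocytoma, with a difference of -0.44 (adjusted p = 0.0406), while the middle one was at -0.05. Tcf19 was 7.75, 7.83, 8.12 and 7.73 in pheochromocytoma, against 6.68 and 6.42 in older wild type. It gave the largest difference of the replication genes in this comparison, 1.27 ± 0.16 (2.42-fold, adjusted p = 0.000428). Uhrf1 was above both pools on every tumour array but did not pass (0.60 ± 0.25, adjusted p = 0.122), and both older pools were dimmer than the lower quartile of their arrays (4.93). Chaf1b was at 0.08 ± 0.14.

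Higher in both lesions, each against its own wild-type reference, were 9 of the 31 genes (29.0%, against 3.19% of all genes). They were Cdt1, Mcm4, Mcm5, Mcm7, Pola1, Pold1, Pold2, Rpa2 and Tcf19. Several of these calls were unstable. In pheochromocytoma Rpa2 passed under 8 of 28 alternatives, Pola1 under 9 and Pold1 under 12. In hyperplasia Pold2 passed under 9 of 28 and Rpa2 under 14. The older wild-type animals were older than the rats with tumours, so lesion and age cannot be told apart in that comparison. The shared count fell to 2 without the first older pool (Mcm7 and Tcf19), 3 without the second, 2 without the first young pool (Cdt1 and Tcf19), 4 without the second, 3 with only the arrays of each comparison, 2 without the 4 hyperplasia arrays and the sex covariate, and 1 (Tcf19) with the cortex markers' mean added to the fit. In pheochromocytoma alone, Mcm2 and Tcf19 passed under all 28 alternatives. The count of 14 fell to 5 without the first older pool, when Rfc5 was at 0.39 and Rfc2 at 0.36, to 7 without the second and to 6 with only the arrays of the 2 groups compared. With the cortex markers' mean it was 2 (Mcm2 and Tcf19), with a median of 0.41. Of all genes, 2180 passed as reported, 2252 without the first older pool, 270 without the second, 422 with only the arrays compared and 57 with the cortex markers' mean.

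**Figure D4:**
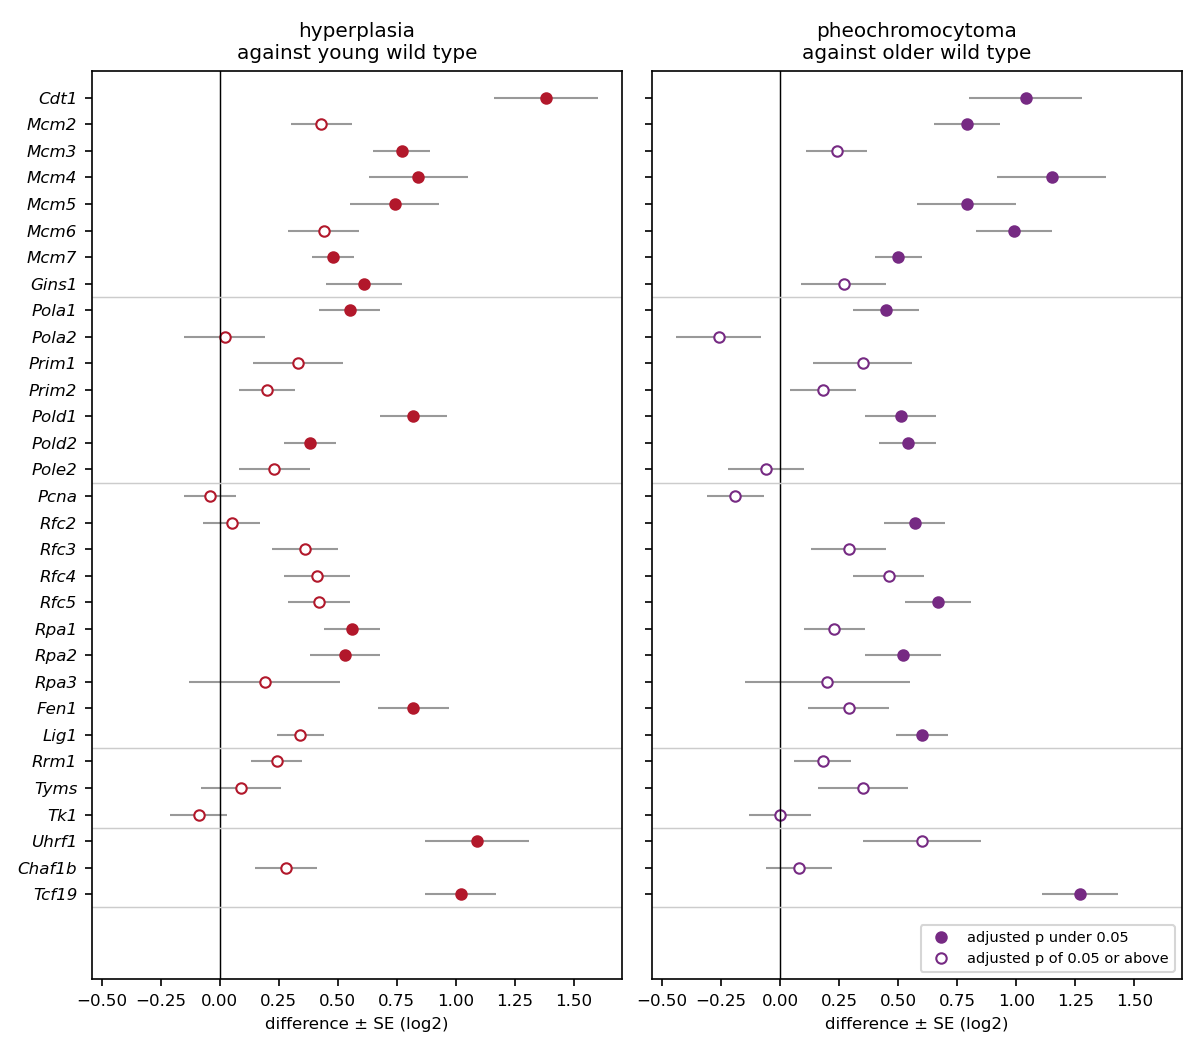
Log2 difference of each replication gene in hyperplasia against young wild type (left) and in pheochromocytoma against older wild type (right), with bars for the standard error; filled points passed an adjusted p under 0.05 and open points did not. In each panel 14 of 31 points are filled and all filled points lie to the right of 0.

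Whether the difference from wild type was itself different in the tumours and in hyperplasia was tested directly. None of the 31 genes passed (0 of 31), as against 0.00703% of all genes, and 4 of them (12.9%) had an unadjusted p under 0.05, against 10.3% of all genes. The smallest p belonged to Mcm3, with 0.24 in pheochromocytoma and 0.77 in hyperplasia and a difference of -0.52 ± 0.18 (adjusted p = 0.313), and to Rfc2, with 0.57 in pheochromocytoma and 0.05 in hyperplasia and a difference of 0.52 ± 0.18 (adjusted p = 0.308). Genes called in 1 comparison and not in the other are therefore not shown to differ between the lesions.

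Pheochromocytoma and hyperplasia were also set against each other directly. Of 31 replication genes, 1 was higher (3.23%) and 11 were lower (35.5%) in pheochromocytoma, while 14.6% of all genes were higher and 19.2% lower. The mean of 13 macrophage and leukocyte markers was 8.27 to 8.71 in pheochromocytoma against 8.89 to 9.30 in hyperplasia, and its part in the result was not tested. The lesions also differed in age and in the hexokinase ratio given above, and lesion, age and RNA length cannot be told apart in this comparison. Mcm4 was the gene that went up, 8.55 to 8.95 in pheochromocytoma against 7.16 to 8.20 in hyperplasia, with no overlap and a difference of 0.91 ± 0.16 (1.88-fold, adjusted p = 0.000464). Tcf19 was lower in the tumours on every array, with means of 7.86 ± 0.18 in pheochromocytoma and 8.70 ± 0.19 in hyperplasia and a difference of -0.88 ± 0.12. Mcm6 and Rrm1 also lay lower in every tumour, with differences of -0.70 ± 0.12 and -0.56 ± 0.09, and with Tcf19 and Pola1 they made 4 such genes of 31 (12.9%), against 13.0% of all genes. Mcm5, with overlapping groups, differed by -0.71 ± 0.15. The remaining lower genes were Cdt1, Tyms, Mcm3, Rpa2, Pola1, Rfc2 and Pold2, with differences from -0.53 to -0.24. Without the second pheochromocytoma array 7 genes passed, and 7 passed without the 4 hyperplasia arrays that went against their labels, a fit that also leaves out the sex covariate (11 passed without the covariate alone).

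Older wild-type medulla had 7 of 31 replication genes (22.6%) lower than young wild-type medulla and 0 higher at an adjusted p under 0.05. Across all genes at that threshold, 12.7% were lower and 8.45% higher. At an unadjusted p under 0.05, 8 of the 31 were lower and 2 higher, with no share of all genes to set beside them. Mcm6 was 6.82 and 6.75 in older wild type, against 7.70 and 8.38 in young wild type, a difference of -1.26 ± 0.19 (adjusted p = 0.000274). Tcf19 was 6.68 and 6.42 in older wild type, against 7.48 and 7.88 in young wild type, a difference of -1.13 ± 0.18 (adjusted p = 0.000523). Both genes were thus the lowest in older medulla of all 4 groups. The difference was -0.80 ± 0.22 for Tyms, -0.77 ± 0.15 for Rfc2 and -0.76 ± 0.24 for Mcm5, and -0.51 for Rrm1 and -0.40 for Lig1. A second Lig1 probe set was at -0.37 and did not pass (adjusted p = 0.198). The dimmest Tk1 probe set was higher in older wild type (0.45, adjusted p = 0.0455), while the middle one was at -0.34 (adjusted p = 0.302). Every older pool was below every young pool for 35.5% of the replication genes and for 33.8% of all genes, and these shares are close. The mean of 13 macrophage and leukocyte markers was 8.39 to 8.60 in older wild type against 8.87 to 8.88 in young wild type, and that of 9 fibroblast and pericyte markers was 8.33 to 8.37 in older against 9.19 in young wild type. Means were also lower for 3 red blood cell markers (8.05 to 8.36 in older against 8.68 to 9.04 in young wild type) and 6 markers of Schwann and sustentacular cells (7.38 to 7.40 in older against 7.78 in young wild type). Chromaffin marker means were lower and cortex marker means higher in older than in young wild type, with the values given above. Their part in the result was not tested. The age groups also differed in the hexokinase ratio, and age and RNA length cannot be told apart. Without the first older pool 3 genes were lower and 1, Pold1, was higher, without the second older pool 5 were lower, without the first young pool 4 were lower, and without the second young pool 3 were lower and 2 higher. With only the 4 wild-type arrays in the fit 2 (of 31) were lower. After quantile normalization 5 genes were lower and 2 higher in older medulla. Across all genes, calls after quantile normalization were 1545 higher and 1257 lower in older wild type (1202 and 1799 as deposited), 1017 higher and 1134 lower in pheochromocytoma against older wild type (1258 and 922 as deposited), and 2454 higher and 2285 lower in pheochromocytoma against hyperplasia (2078 and 2731 as deposited).

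The pools of each wild-type group were not alike. In both groups the first pool had high Xist and the second low Xist. The values were 12.14 and 3.21 in young wild type and 12.30 and 3.58 in older wild type. A difference between pools therefore cannot be told apart from one that goes with Xist or sex. The second young pool was higher than the first for 27 of 31 replication genes, with a median difference of 0.37, while 50.5% of all genes were higher in it. The second older pool was higher than the first for 20 of 31, with a median of 0.14, against 48.9% of all genes.

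The hyperplasia arrays themselves fell into 4 with low Xist (replicates 1, 2, 7 and 8, at 2.86 to 3.88) and 4 with high Xist (replicates 3 to 6, at 11.29 to 11.77), and some replication genes followed that split. In 8 of the 31 genes (25.8%) all low-Xist arrays were above all high-Xist arrays, as in 8.93% of all genes, and these were Cdt1, Mcm2, Mcm5, Mcm6, Rfc5, Tk1, Uhrf1 and Tcf19. Cdt1 was 6.69 to 7.40 on low-Xist arrays and 6.41 to 6.67 on high-Xist arrays. Uhrf1 was 5.42 to 5.70 on low-Xist arrays and 4.83 to 5.31 on high-Xist arrays. The opposite order held for Rfc3 and Rpa3 (6.45%, against 8.63% of all genes), and Rpa3 was 8.57 to 9.48 on low-Xist arrays and 9.63 to 9.95 on high-Xist arrays. The split was seen in the data and was not tested. With the Xist level in place of the labelled sex in the fit, 17 genes passed in hyperplasia and 16 in pheochromocytoma.

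**Figure D5:**
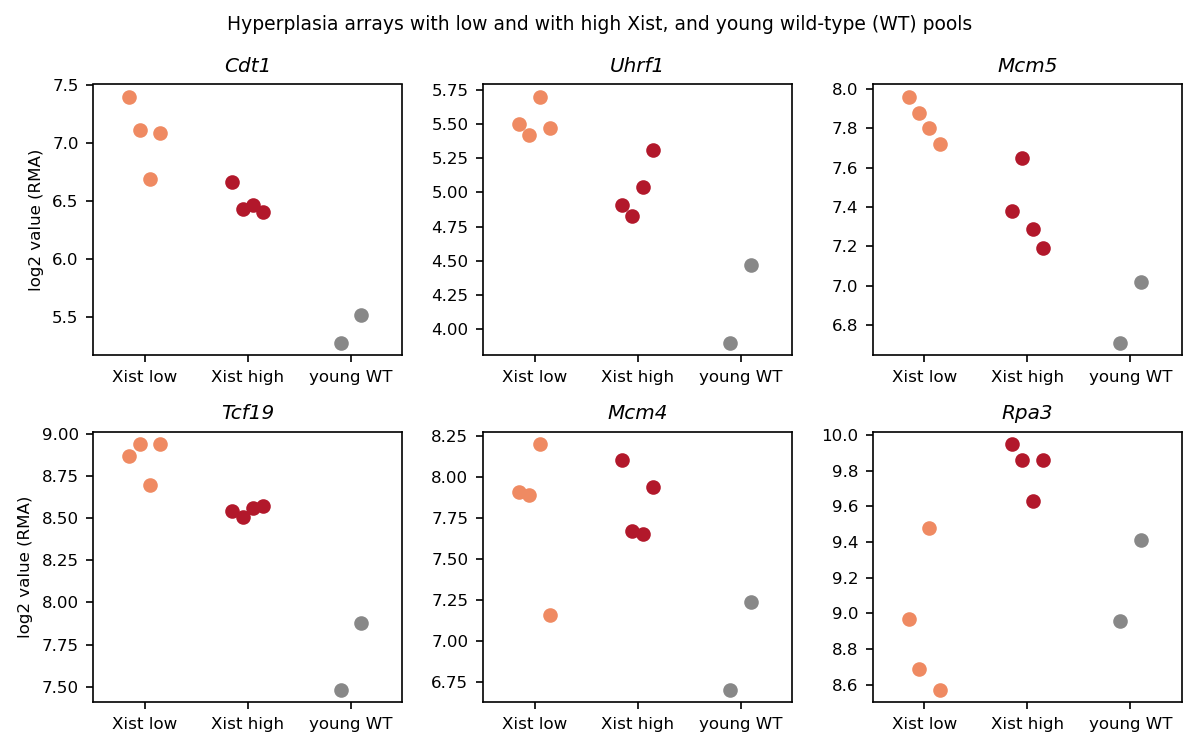
Log2 values of 6 replication genes on the hyperplasia arrays with low Xist and with high Xist, and in the young wild-type (WT) pools; each point is 1 array and each vertical axis has its own range. Cdt1, Uhrf1, Mcm5 and Tcf19 are higher on all 4 low-Xist arrays, Rpa3 is lower on them, and Mcm4 overlaps.

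Other genes of the same pathway were counted from lists drawn up from general knowledge. Each count is to be read against the share of all genes called, 5.16% higher and 3.33% lower in hyperplasia and 8.85% higher and 6.49% lower in pheochromocytoma. Of 17 measured genes of origin recognition and firing, 2 were higher in hyperplasia (list median 0.14), the GINS subunits Gins4 (0.47 ± 0.12) and Gins3 (0.44 ± 0.11), and 0 were lower. At the share of all genes, a list of this size would hold about 1 higher gene in hyperplasia, so this count lies near the background. In pheochromocytoma 3 were higher (list median 0.27), Wdhd1 (0.62 ± 0.14), an adaptor between the helicase and polymerase alpha, Gins4 (0.45 ± 0.13) and the origin recognition subunit Orc6 (0.44 ± 0.14). Of 22 other polymerase and fork genes, 2 were higher in hyperplasia and 5 in pheochromocytoma, and 0 were lower in both, with list medians of 0.05 and 0.14. The 2 in hyperplasia also lie near the 5.16% of all genes called higher there. Top2a, the topoisomerase that untangles replicated DNA, averaged 7.35 ± 0.51 in hyperplasia and 6.03 ± 0.07 in young wild type (SD), a difference of 1.32 ± 0.36 (SE, adjusted p = 0.0401). It averaged 6.95 ± 0.64 in pheochromocytoma and 5.47 ± 0.12 in older wild type, a difference of 1.49 ± 0.40 (adjusted p = 0.0252). Atad5, which unloads PCNA, differed by 0.51 ± 0.14 in hyperplasia and 0.58 ± 0.15 in pheochromocytoma, and Dscc1, part of an alternative clamp loader, by 0.82 ± 0.24 in pheochromocytoma, where the polymerase delta subunit Pold3 differed by 0.43 ± 0.11.

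Among 19 other genes of nucleotide supply, 0 were higher and 1 lower in hyperplasia, and 3 were higher and 3 lower in pheochromocytoma, with list medians of 0.08 and -0.08. The single lower gene in hyperplasia is near the 3.33% of all genes called lower there. Mthfd2, a mitochondrial enzyme of folate metabolism, averaged 9.02 ± 0.23 in hyperplasia and 10.02 ± 0.17 in young wild type (SD), a difference of -0.99 ± 0.25 (SE). It averaged 9.33 ± 0.47 in pheochromocytoma and 11.20 ± 0.60 in older wild type, a difference of -1.89 ± 0.28 (adjusted p = 0.00113). In pheochromocytoma the cytosolic folate enzymes Shmt1 (-1.24 ± 0.37) and Mthfd1 (-0.48 ± 0.14) were also lower, and the mitochondrial Shmt2 (0.71 ± 0.18) was higher. The cortex marker mean was lower than in wild type in all hyperplasia arrays and all tumours, as given above, and its part in these values was not tested gene by gene. Of 10 genes of histone supply and replication-coupled chromatin, 3 were higher in hyperplasia (list median 0.31), the histone chaperones Asf1b (1.05 ± 0.20) and Chaf1a (0.53 ± 0.13) and the maintenance methyltransferase Dnmt1 (0.37 ± 0.10). In pheochromocytoma (list median 0.10) Chaf1a was higher (0.74 ± 0.15) and Ezh2, a histone methyltransferase, was lower (-2.25 ± 0.36). The SD of Ezh2 between the older pools was 1.30. These single calls lie near the 8.85% of all genes called higher and the 6.49% called lower there. Of 20 genes of S phase control and the E2F family, 0 passed in hyperplasia, where the list median was 0.20. At an unadjusted p under 0.05, 4 of the 20 were higher and 3 lower there, with no share of all genes to set beside them. In pheochromocytoma 2 of the 20 were higher (list median 0.27), near the 8.85% of all genes called higher, namely the proliferation antigen Mki67 (1.53 ± 0.48, adjusted p = 0.0464) and the transcription factor E2f1 (0.67 ± 0.17, adjusted p = 0.0188).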

How the data were processed

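Total RNA from the 16 rat adrenal samples was measured on 1-colour arrays, per the labels. The authors deposited log2 values, and RMA is named, with no version, in the submitters' processing notes. The table holds 31099 probe sets, of which 57 controls were left out and 31042 tested. Gene names came from the platform annotation of 2016, with 20826 probe sets carrying 1 symbol, 436 several and 9780 none. The fit used limma 3.58.1 (R 4.3.3) on all 16 arrays, with 4 groups, labelled sex as a covariate and empirical Bayes moderation (11 residual degrees of freedom), two-sided, with Benjamini-Hochberg adjustment over all tested probe sets and a threshold of 0.05. The fit was tested on simulated data. Arrays give no read depth, so the number of arrays, 2 pools in each wild-type group, limits the precision, and p-values measure the spread between these arrays. The 4 groups shared a single estimate of the spread per probe set, which came mostly from the lesion arrays and was applied to the wild-type pools as well. Groups, ages and sex came from the labels. The replication genes and gene lists were chosen with earlier results of these data known, so counts over them are read only against all genes. Genes past the threshold were given array by array up to the 10 largest differences in the comparisons with wild type, up to 5 (or, with none past it, the 2 smallest p) in the others, and up to 4 per companion list. Marker means are averages of log2 values over the listed genes. Replicate numbers were not taken to pair samples. Correlations of deviations between same-numbered arrays ran from -0.179 to 0.212. Arrays with different numbers were not compared, so this range cannot decide whether numbers pair samples. Alternatives were other covariates, scalings, filters, priors and weights, fits to fewer arrays, and leaving out each array. Promoter windows came from RefSeq (GRCr8).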

Additional observations from a re-analysis of the deposited data

Results flagged for a closer look

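Rfc2, a clamp loader subunit, was lowest in hyperplasia replicate 1 at a log2 value of 8.87, set apart from the other hyperplasia arrays at 9.02 to 9.11. Rpa2, the middle subunit of RPA, was lowest in hyperplasia replicate 8 at 7.53, apart from the others at 8.01 to 8.29. The gap was 0.62 of the whole range for Rfc2 and 0.63 for Rpa2, above Dixon's 95% critical value for the group size. These were 2 of 62 groups examined, and chance alone marks about 1 in 20.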

How the results depend on the processing

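The members called higher in hyperplasia (14) became 5 without the 4 arrays that went against their labelled sex and without the sex covariate, 5 with the cortex markers' mean added, and 3 to 15 when single arrays were left out. Those called in pheochromocytoma against older wild type (14) became 6 with only the arrays compared, 2 with the cortex markers' mean added, and 5 to 14 when single arrays were left out. In pheochromocytoma against hyperplasia (12), 7 passed without those 4 arrays and the sex covariate, and 7 to 12 when single arrays were left out. In older against young wild type (7, all lower), 2 passed with only the arrays compared, and 4 to 8 in either direction, with 3 to 8 lower, when single arrays were left out. With the replicate number as a block, which was not taken to pair the samples, 1 gene passed in hyperplasia (Cdt1) and 4 in pheochromocytoma. In that fit 8 passed in pheochromocytoma against hyperplasia and 4 in older wild type. For these counts, fewer samples or fewer degrees of freedom follow from the construction of the alternative, and beyond that the cause was not tested. The difference between the effects gave 0 of the 31 genes in every alternative run, although without the first older pool it gave 254 of all genes, in place of 1. No called difference changed sign. Quantile normalization took Rfc2 in pheochromocytoma against hyperplasia to -0.15 and Lig1 in older wild type to -0.24. Uhrf1 has no value without the 30% of probe sets with the lowest mean, and the fit to only the arrays compared gives none for the difference between the effects. Signal over background was not shown for Uhrf1 in wild type or for Gins1 in the first young pool.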

Other observations

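Cdc45 and Mcm10, both needed to activate the helicase, were higher in older than in young wild type, and were chosen after their values were seen. Cdc45 averaged 7.76 ± 0.12 in older wild type and 6.58 ± 0.13 in young wild type (SD, n = 2 pools each), a difference of 1.18 ± 0.14 (SE, limma adjusted p = 3.49e-05). Mcm10 averaged 6.19 ± 0.18 in older wild type and 5.31 ± 0.13 in young wild type, a difference of 0.88 ± 0.19 (limma adjusted p = 0.0047). Neither passed in the comparisons of a lesion with its wild-type reference, where Cdc45 was at 0.16 ± 0.11 in hyperplasia and -0.16 ± 0.12 in pheochromocytoma. The hexokinase ratio differs between the same age groups, and its part in these values was not tested.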
